A study of Schizosaccharomyces pombe with 36 samples.

Results

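Pol α, the polymerase that carries primase and starts every Okazaki fragment, was mapped in 4 of the 36 libraries of the series, 2 from strains with an active replication fork barrier and 2 from strains without. These 4 libraries were chosen by their labels as the Pol α libraries of the RTS1-rRFB locus, and they are described here strand by strand between 820 and 920 kb of chromosome 2 in the coordinates of the deposited files. Pu-seq, or polymerase usage sequencing, locates ribonucleotides built into DNA by a polymerase with a mutated active site, here in strains of fission yeast, Schizosaccharomyces pombe, that cannot excise single ribonucleotides. Cells were grown to log phase and their DNA was cut at the ribonucleotides with alkali, so that each count is a fragment end in a bin of 300 bp on one strand.

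All 4 strains were h- and carried ChII-8535:Rura-10xrDNA (RTS1 beside ura4, and 10 copies of the Ter2-Ter3 sequence of the rDNA fork barrier, the rRFB array), the Pol α mutation pol1-L850F, the natural RTS1 replaced by Phleo, and ade6-704, leu1-32 and ura4-D18. In the barrier-on strains rtf1, the gene of the protein that binds RTS1 and makes it a barrier, was intact. In the barrier-off strains it was deleted (rtf1::nat). Each barrier state was sequenced once with rnh201 deleted (rnh201::kan, rnh201-d) and once with rnh201-RED, a mutant of this RNase H2 subunit that no longer recognises single ribonucleotides but keeps its activity on longer RNA. Errors below are therefore SD over the 2 alleles (n = 2), each with 1 library per barrier state, and 95% intervals of single values are exact and cover counting error only. Nothing in the labels gives a second culture of any of the 4 strains.

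At a replication fork the leading strand is made mainly by Pol ε, and the lagging strand is made in Okazaki fragments that Pol α begins and Pol δ extends. For a fork moving from left to right the lagging strand is the Crick strand, and for one moving from right to left it is the Watson strand, so the strand that holds Pol α ribonucleotides reports fork direction. RTS1 is a barrier to forks from one side only and comes from the mating type region, where it sets the direction of replication. Forks halted at it can be restarted by homologous recombination, and such restarted forks are known for using Pol δ on both strands. The comparison of barrier on and barrier off asks where Pol α ribonucleotides are lost or gained when forks are halted.

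The sequences at both insertions were read from the reference genome (RefSeq, ASM294v3) to place the profile. They are shown because every distance below is counted from these sites.
left of the RTS1 insertion: taatctaaatcttgcttagtttcccaagta
right of the RTS1 insertion: gagtaatgtatcaaccagataatcattaaa
left of the rRFB insertion: cgaaatctgtagaatttgtggccaagaacc
right of the rRFB insertion: gttttcttaaaaactaaaagagaattgtac
On the plus strand the first pair lies at chr2:851776-851805 and chr2:851806-851835, and the second pair at chr2:862426-862455 and chr2:862457-862486. The RTS1 construct sits in the sequence between clr6, a histone deacetylase gene whose near border is 329 bp to its left, and spo9, whose near border is 2 bp to its right, both on the minus strand. The array replaced 1 base, 34 bp past the end of ups2 and inside the first exon of SPBC36.11, before its coding sequence. The genes described in the 10650 bp between the insertions are spo9, cog2 (a subunit of a Golgi tethering complex), sap61 (a splicing factor) and ups2. The files' build is not given in the sources used here. Counts aligned to the reference with 2810 bp added between the insertions and 3705 bp added past the array, so file coordinates are used from here on, with the RTS1 construct at 851806 to 854615 and the array at 865266 to 866161.

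RTS1 itself holds a short sequence 4 times, and it is shown because RTS1 is the element that Rtf1 binds. The repeats were found in the 851 bp to the left of the right end of the natural RTS1, on the plus strand of the reference, and the capitals mark the 20 repeated bases.
RTS1 repeat 1: gtttcTGCCATACCCTTTTTAAGTGggatg
RTS1 repeat 2: gtaagTGTCATACCCTTTCCAAGTGggagg
RTS1 repeat 3: aaaagTGTCATACCCTTTCTAAGTGgggga
RTS1 repeat 4: taaaaTGCCATACCCTTTCCAAATGgggga
They lie at chr2:2113299-2113328, chr2:2113383-2113412, chr2:2113505-2113534 and chr2:2113576-2113605. Of the 20 positions 16 were the same in all 4 repeats, and any 2 repeats differed at 1 to 3 positions. The match is a description of the letters and says nothing of binding.

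The libraries held 22231326 (barrier off, rnh201-RED), 17340129 (on, rnh201-RED), 12211061 (off, rnh201-d) and 8820281 (on, rnh201-d) counts. Levels are given per kb as counts per 1000000 counts of the library (CPM). Across the genome, 1.5-kb windows had a median log2 on over off between -0.01 and 0.04 for either strand and allele, and the middle 95% ran from -0.98 to 0.94 on the Crick strand for rnh201-d and from -0.47 to 0.44 for rnh201-RED. The rnh201-d pair was thus the noisier of the 2. Counts over rtf1 were 0 and 2 in the barrier-off libraries and 551 and 923 in the barrier-on libraries, as labelled, and counts over rnh201 were 0 in both rnh201-d libraries. Counts over pku70, a Ku subunit gene that no label of these 4 strains alters, were 535 to 1669 in the other 3 libraries but 0 in the barrier-off rnh201-d library, so that library went against its label. In the rnh201-d pair, barrier state and this difference over pku70 cannot be told apart. The means and SD over the alleles and the edgeR fits of all 4 and of 12 libraries include that pair. Results are therefore also given per allele, and the rnh201-RED pair stands without that library.

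On the Crick strand Pol α fell along a stretch that began just left of RTS1, reached its depth in or beside the construct, stayed low up to the array, and faded over the genes past it. Between the insertions, from 855216 to 864665 (600 bp beside each insert left out), the barrier-off libraries held 66.9 (rnh201-RED) and 76.7 (rnh201-d) CPM per kb on the Crick strand. The barrier-on libraries held 15.8 and 15.1 CPM per kb there. Both barrier-on levels thus lay far below both barrier-off levels, and they were close to each other. The log2 on over off was -2.08 (95% interval -2.15 to -2.02) for rnh201-RED and -2.35 (-2.44 to -2.26) for rnh201-d, a mean of -2.22 ± 0.19 (SD, n = 2) or a ratio of 0.215. In these bulk data fewer cells with Pol α ribonucleotides there and fewer ribonucleotides per cell cannot be told apart.

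**Figure D1:**
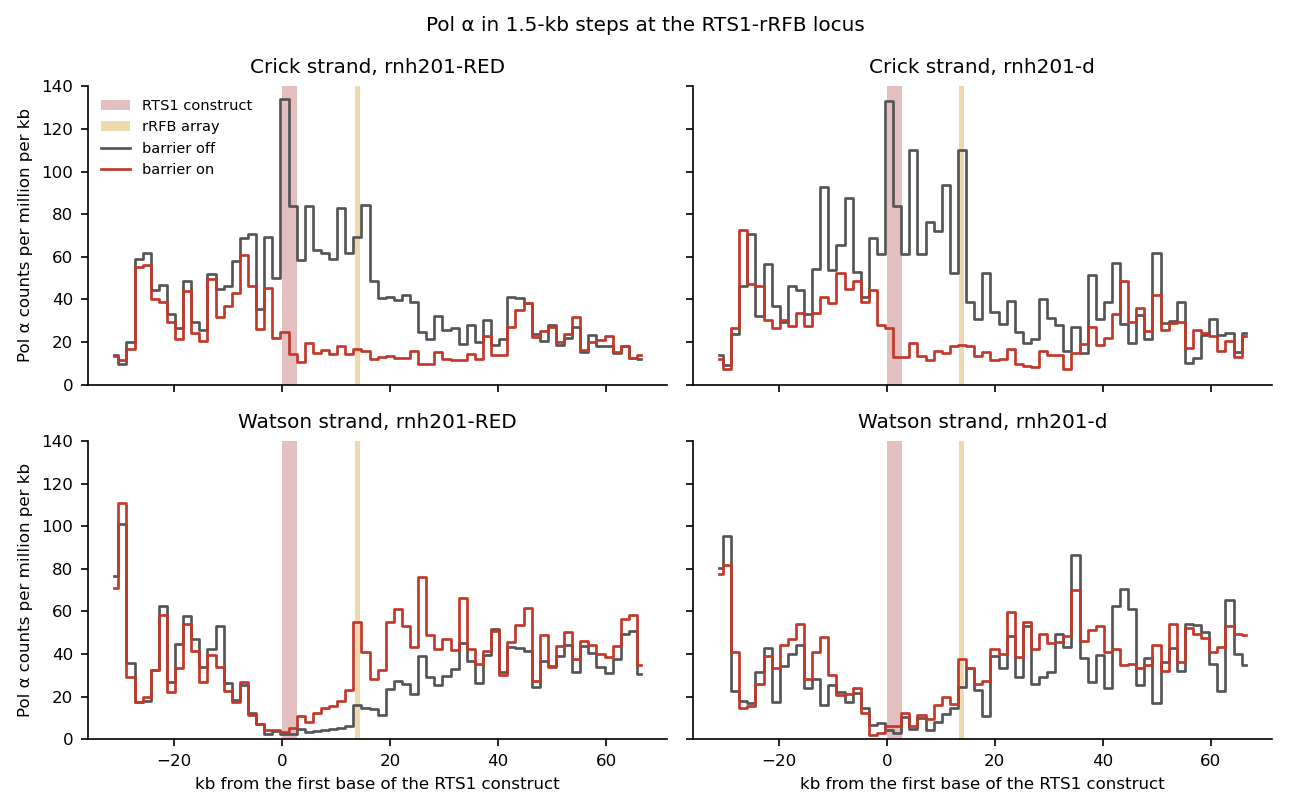
Pol α level in 1.5-kb steps (y axis, CPM per kb) against distance from the first base of the RTS1 construct (x axis, kb), for each strand and rnh201 allele. Grey lines are barrier-off and red lines barrier-on libraries, 1 library per line, and shaded bands are the inserts. On the Crick strand the red line stays between 10.8 and 24.9 CPM per kb from the construct to the array in rnh201-RED, where the grey line runs from 58.4 to 134.

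The loss on the Crick strand was flat between the insertions. Cut into 6 equal parts from RTS1 to the array, the mean log2 on over off was -2.14, -2.31, -2.34, -2.11, -2.40 and -1.91. The part nearest the array was the least reduced, but the alleles differed in size there, with -2.15 in rnh201-RED and -1.67 in rnh201-d. The SD of the single parts ran from 0.03 to 0.56, so the parts did not differ beyond the spread between the alleles. Barrier-on levels stayed within 11.9 to 20.4 CPM per kb in all 6 parts of both alleles, although barrier-off levels varied from 53.8 to 104. The second part was the highest in both barrier-off libraries, at 91.0 and 104 CPM per kb.

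Inside the RTS1 construct the levels fell from 109 to 18.9 CPM per kb (rnh201-RED) and from 115 to 19.5 CPM per kb (rnh201-d). The log2 changes of -2.53 and -2.56 had a mean of -2.55 ± 0.02 (SD, n = 2), and the alleles were close to each other in both barrier states. The bin centred 344 bp into the construct held 267 CPM per kb (rnh201-RED) and 209 CPM per kb (rnh201-d) in the barrier-off libraries, against 49.0 and 34.0 in the barrier-on libraries. It was the highest Crick bin of the construct in barrier-off rnh201-RED, and the next bin was the highest in barrier-off rnh201-d. Reads from ura4 in the construct have no second full copy to match in ura4-D18 strains, but how the authors placed reads with several matches is not given in the sources used here.

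The fall began left of the insertion. From 848806 to 851205, over clr6 and the end of cys11, a cysteine synthase gene, the Crick level went from 61.8 to 33.9 CPM per kb in rnh201-RED and from 62.3 to 38.5 CPM per kb in rnh201-d. The log2 changes were -0.87 (-0.96 to -0.78) and -0.70 (-0.82 to -0.58), with a mean of -0.78 ± 0.12 (SD, n = 2). In single 300-bp bins of rnh201-RED the log2 change was -0.34 at -2656 bp from the first base of the construct, -1.27 at -2356 bp, -1.07 at -1156 bp and -1.77 at -256 bp. In rnh201-d the same bins gave -0.80, 0.24, -0.98 and -1.05, so the approach to the insert was uneven in both. Further left, back to 820 kb, the Crick change was small in both alleles, with -0.25 and -0.40.

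The edges were placed where the log2 on over off of a moving sum of 5 bins passed -1. In rnh201-RED the fall ran from 849936 to 880939, beginning in clr6, 1.87 kb left of the construct, and ending in wdr83, a WD-repeat gene, 14.8 kb past the array. In rnh201-d it ran from 851269 to 875747, beginning in clr6 again, 0.537 kb left of the construct, and ending in dld2, a lactate dehydrogenase gene, 9.59 kb past the array. The rnh201-d ratio was also below -1 from 850354 to 851120, so its left edge rests on a short gap. After a short gap at 875747 to 875868, where the rnh201-d ratio was just above -1, it was below -1 again up to 881134. It was so later too, from 881686 to 883660 and from 884906 to 886450. The rnh201-RED end was also a short gap, at 880939 to 880975, after which its ratio was below -1 up to 884554. With moving sums of 11 bins the fall ended 18.3 kb past the array in each allele. The right edges and the distance between them thus rest on short gaps. The fall began 1.2 ± 0.943 kb left of the construct, ended 12.2 ± 3.67 kb past the array and was 27.7 ± 4.61 kb long (SD, n = 2). The right edge was shallow and moved with the threshold. At a log2 of -0.5 it lay 21.9 kb past the array and at -1.5 it lay 2.72 kb past it, while the left edge lay 3.19 and 0.559 kb left of the construct.

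**Figure D2:**
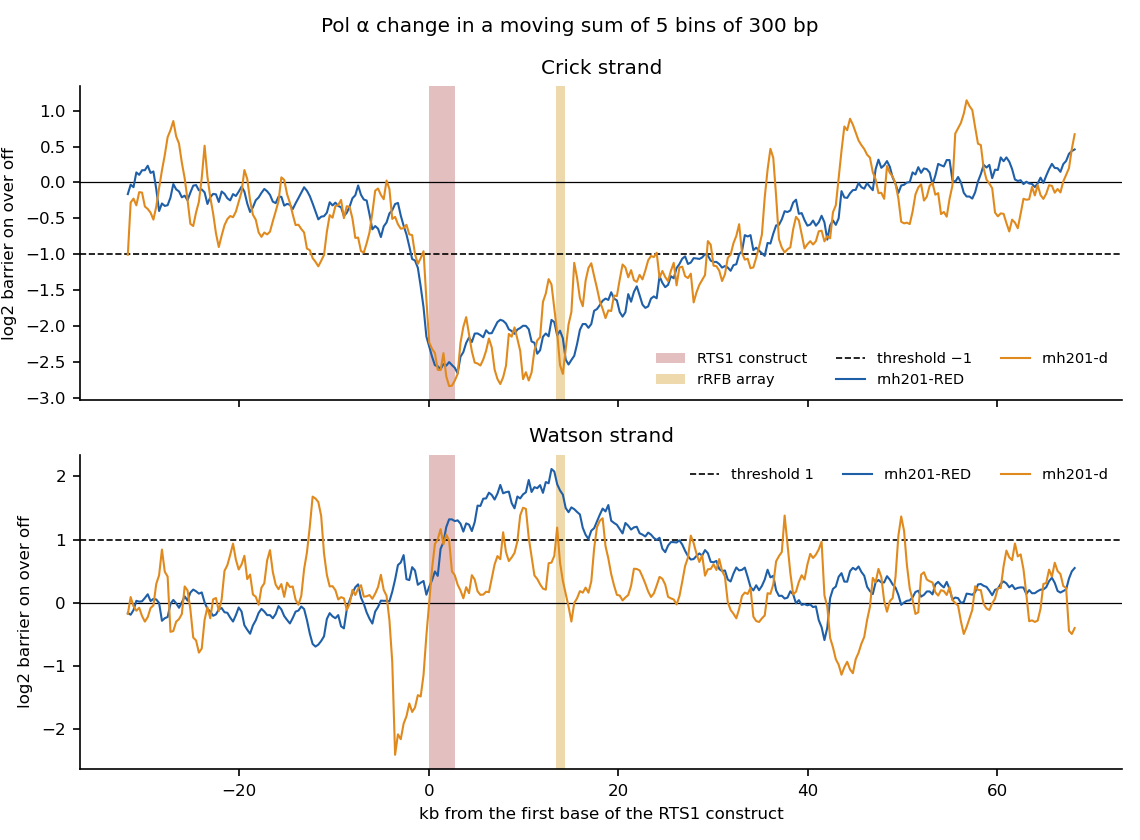
Log2 of barrier on over barrier off (y axis) in a moving sum of 5 bins of 300 bp against distance from the first base of the RTS1 construct (x axis, kb), with rnh201-RED in blue and rnh201-d in orange. On the Crick strand both lines drop below -1 at the left end of the construct and climb back over the stretch past the array, and on the Watson strand the blue line stays above 1 for 22.4 kb while the orange line does so in short runs.

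The minimum of the moving ratio lay in or beside the construct in both alleles. It was -2.66 in rnh201-RED, 0.235 kb right of the construct, and -2.84 in rnh201-d, inside the construct at -0.665 kb from its right end. Past the array, from 866762 to 879261, the Crick level went from 41.8 to 12.8 CPM per kb (rnh201-RED) and from 32.7 to 12.7 CPM per kb (rnh201-d). The barrier-on level there was as low as between the insertions, and it was the barrier-off level that was lower. The log2 changes were -1.71 and -1.36, a mean of -1.54 ± 0.24 (SD, n = 2). Beyond that, up to 920 kb, they were -0.23 and -0.30.

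edgeR's quasi-likelihood test with the allele as a term, over 16761 windows of 1.5 kb on both strands, called 20 Crick windows lower with the barrier on at a Benjamini-Hochberg adjusted p under 0.05. All 20 lay at the locus, where 68 Crick windows were tested, and they were 0.239% of the 8381 Crick windows of the genome. They covered 30 kb. A run of 18 windows reached without a gap from 850501 to 877500, that is from 1.3 kb left of the construct to 11.3 kb past the array, and 2 single windows followed at 879001 to 880500 and 882001 to 883500. The first window of the run, over clr6, had a log2 change of -1.38 and the last, over dld2 and pwp2, -1.42, with adjusted p of 0.0477 and 0.0442 by edgeR's quasi-likelihood test. The lowest adjusted p, 2.23e-05 by the same edgeR test, belonged to 853501 to 855000 at the right end of the construct, with a log2 change of -2.71 (SE 0.27). There the barrier-off levels were 80.4 (rnh201-RED) and 102 CPM per kb (rnh201-d), and the barrier-on levels were 13.8 and 14.3.

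Both barrier-on libraries were below both barrier-off libraries in 11 of 11 Crick windows from the construct to the array, in 15 of 21 windows left of it and in 17 of 36 past it. Across the genome this held for 7.33% of Crick windows. A fall of over 2-fold in both alleles was seen in 20 windows of the genome (0.239%), 10 from the construct to the array and 10 past it. These calls rest on all 4 libraries with the allele term. With 3 libraries that term leaves no residual degrees of freedom, so the fits without a library also dropped it, and with all 4 libraries dropping it alone left 16.5 kb. Set against that value, 25.5 kb were called without the barrier-off rnh201-d library and 13.5 kb without the barrier-off rnh201-RED library. With either barrier-on library left out, and without the allele term, no window was called. Each of those fits keeps only the other barrier-on library, so it holds no spread between barrier-on libraries.

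The only window called outside the locus was on the Crick strand of chromosome 1, 4797001 to 4798500, over rtf1, the gene deleted in the barrier-off strains. It was higher with the barrier on (log2 change 2.16, SE 0.30, adjusted p = 0.000642 by edgeR's quasi-likelihood test).

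On the Watson strand Pol α was higher right of RTS1 with the barrier on, but by less than the Crick strand lost and less evenly between the alleles. Between the insertions the Watson level went from 4.59 to 14.6 CPM per kb in rnh201-RED and from 9.06 to 13.0 CPM per kb in rnh201-d. The barrier-on libraries were close to each other, and the barrier-off libraries differed by more than the rnh201-d pair changed. The log2 changes were 1.67 (1.56 to 1.78) and 0.52 (0.39 to 0.64), a mean of 1.09 ± 0.81 (SD, n = 2). In the RTS1 construct they were 0.98 and 0.96, at levels of only 2.46 to 7.10 CPM per kb.

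In rnh201-RED the Watson difference was larger with distance from RTS1. In steps of 1.5 kb the barrier-on level went from 5.04 CPM per kb in the second step of the construct to 10.8, 8.15, 12.3, 14.4, 15.4, 17.7 and 22.9 CPM per kb before the array, while the barrier-off level stayed between 2.19 and 6.09. At the step over the array it was 55.2 against 16.1 CPM per kb. The moving ratio passed 1 at 853402, inside the construct, peaked at 2.12 at -0.516 kb from the first base of the array, and fell below 1 at 875792 in dld2, 9.63 kb past the array. This run of 22.4 kb thus reached from the construct across spo9, cog2, sap61, ups2 and ubp15.

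In rnh201-d no such block was seen in the ratio. Its longest run above 1 was 1.54 kb long, at 839100 to 840639, 12.7 kb left of the construct, where the rnh201-RED ratio was below 0. With a threshold of 0.5 its longest run lay between the insertions instead, at 858603 to 862882. The difference in CPM per kb was also followed, above 0.5 of its mean between the insertions. Its longest rnh201-d run was 8.04 kb, from 3.7 kb right of the construct to 0.198 kb past the array. Its largest rnh201-d value, 38.9 CPM per kb, lay at -14.8 kb from the construct's right end. In rnh201-RED that run was 31.8 kb, from 2.09 kb right of the construct to 22.3 kb past the array. Right of RTS1 the ratio passed 1 in short runs of 0.191 to 1.21 kb, the longest at 861171 to 862379 over sap61. The 6 steps between the insertions were nevertheless all higher with the barrier on in both alleles. From 866762 to 879261, past the array, the Watson level went from 23.1 to 49.8 CPM per kb in rnh201-RED and from 33.0 to 40.2 CPM per kb in rnh201-d. The log2 changes of 1.11 and 0.29 had a mean of 0.70 ± 0.58 (SD, n = 2), so both alleles were higher and their sizes differed.

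At the array itself the Watson strand changed over single bins. In the barrier-on rnh201-RED library the bin 216 bp left of the array held 19.2 CPM per kb, the 3 bins in it 66.9, 80.0 and 64.6, and the bin after them 45.2. With the barrier off the same bins held 5.70, then 12.6, 20.2 and 25.6, then 16.2 CPM per kb. In rnh201-d the array bins went from 11.2, 21.3 and 12.3 to 19.3, 44.6 and 44.6 CPM per kb. The array was thus higher than the bin to its left in both states of rnh201-RED, and higher with the barrier on in both alleles (1.85 and 1.28 on the log2 scale). In rnh201-d the bin to its left held 13.9 (off) and 34.8 CPM per kb (on), above some of the array bins. The bin after the array held 62.8 (off) and 45.7 CPM per kb (on) in rnh201-d, so the step and the rise beside it were not seen there. The array's sequence also occurs in the rDNA, and the part of reads from there in these bins was not tested.

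No Watson window was called by edgeR's quasi-likelihood test (0.0% of 8380). The lowest adjusted p of the locus on this strand was 0.332 by that test, and 12 of its Watson windows were higher at an unadjusted p under 0.05. At the locus 136 windows of both strands were tested, and across the genome 259 of 16761 had an unadjusted p under 0.05. DESeq2 also called 0 Watson windows there, but its lowest adjusted p was 0.0508, and edgeR without TMM gave 0.0569. Both barrier-on libraries were above both barrier-off libraries in 9 of 11 Watson windows from the construct to the array and in 22 of 36 past it, against 11.9% of the genome's Watson windows and 0 of 21 left of RTS1. The single Watson window of the genome that was over 2-fold higher in both alleles (0.0119%) lay between the insertions, at 861001 to 862500, over sap61. It went from 5.04 to 16.6 CPM per kb in rnh201-RED and from 5.13 to 14.6 CPM per kb in rnh201-d.

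Left of RTS1 the Watson strand of the alleles moved apart. Over clr6 and the end of cys11 the level was 3.11 CPM per kb in barrier-off and 4.30 in barrier-on rnh201-RED, and 7.37 and 2.31 in the rnh201-d libraries. The log2 changes were 0.47 (0.15 to 0.78) and -1.67 (-2.15 to -1.22), on 49 to 216 counts. The barrier-off rnh201-d library with 0 counts over pku70 was the highest of the 4 here, and its part in the difference was not tested. In the rnh201-RED background, barrier-off libraries labelled pku70-d differed from those labelled pku70+ on this stretch of the Watson strand by 0.20 (-0.24 to 0.66) for Pol δ and 0.34 (0.25 to 0.43) for Pol ε on the log2 scale. On its Crick strand they differed by -0.17 (-0.30 to -0.05) and -1.98 (-2.22 to -1.75). The last value rests on a pku70+ Pol ε library that held 15.0 CPM per kb there. Pol ε libraries labelled pku70+ held 4.54 in barrier-on rnh201-RED, and 2.66 (off) and 3.38 (on) in rnh201-d. Whether pku70 has a part in it was not tested.

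**Figure D3:**
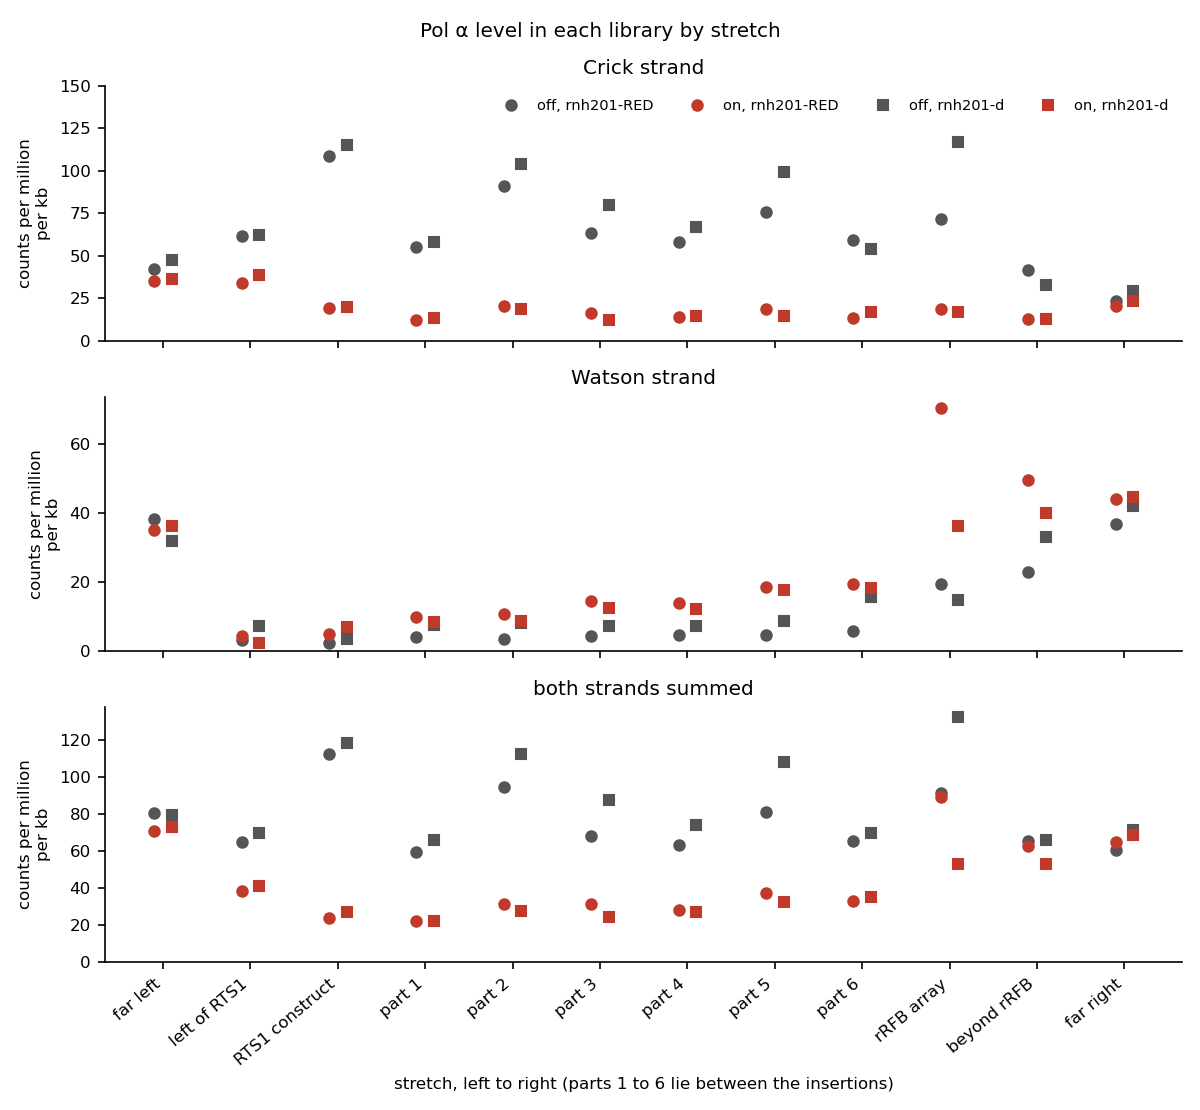
Pol α level (y axis, CPM per kb) in each of the 4 libraries by stretch (x axis, from 820 to 920 kb), for the Crick strand, the Watson strand and both summed. Grey points are barrier off, red points barrier on, circles rnh201-RED and squares rnh201-d, each 1 library. From the RTS1 construct through the sixth part, both red points lie under both grey points on the Crick strand and on both strands summed, and on the Watson strand the gap is smaller and in rnh201-d close to 0 in several parts.

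The gain on one strand did not match the loss on the other between the insertions. Summed over the whole 10650 bp between the inserts, the Crick strand changed by -542 (rnh201-RED) and -605 (rnh201-d) CPM with the barrier on. The barrier-off totals were 702 and 768 CPM. The Watson strand changed by 107 and 45.7 CPM, that is 19.7% and 7.55% of the Crick loss. With 600 bp beside each insert left out, the level of both strands together went from 71.5 to 30.4 CPM per kb and from 85.8 to 28.0 CPM per kb. The log2 changes of -1.24 and -1.61 had a mean of -1.43 ± 0.27 (SD, n = 2), a ratio of 0.372.

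Past the array, summed from its end to 920 kb, the changes differed between the alleles. In rnh201-RED a Crick change of -552 CPM stood beside a Watson change of 653 CPM, or 118% of it. In rnh201-d the changes were -523 and 191 CPM, or 36.6%. On the nearer stretch alone, from 866762 to 879261, the Crick and Watson changes were -29.0 and 26.7 CPM per kb in rnh201-RED. In rnh201-d they were -20.0 and 7.27 CPM per kb. Both strands together changed there by -0.05 (rnh201-RED) and -0.31 (rnh201-d) on the log2 scale, against -1.24 and -1.61 between the insertions.

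The share of Pol α on the Crick strand, which does not depend on the library total, went from a strong bias to near equality. Between the insertions it was 93.6% (93.2 to 94.0) in rnh201-RED and 89.4% (88.8 to 90.0) in rnh201-d with the barrier off, and 52.0% (50.6 to 53.4) and 53.7% (51.7 to 55.8) with it on. The alleles of a state were far closer to each other than the states were. With the barrier on, the share was 55.7% in the first part and 40.5% in the sixth in rnh201-RED, and 61.0% and 48.1% in rnh201-d. The second part had the highest share in both (65.1% and 68.2%). From 866762 to 879261, past the array, it was 20.5% and 24.0% with the barrier on, against 64.4% and 49.8% with it off.

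**Figure D4:**
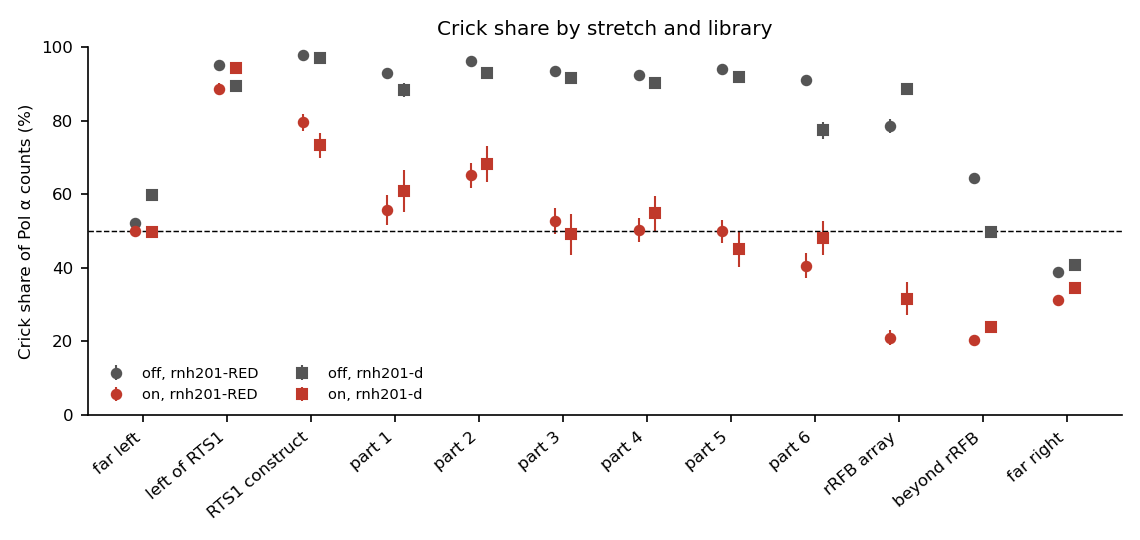
Crick share of Pol α counts (y axis, %) by stretch (x axis, left to right) in the 4 libraries, with exact 95% binomial intervals that cover counting error only. Grey is barrier off, red barrier on, circles rnh201-RED and squares rnh201-d. The red points leave the grey ones at the RTS1 construct (79.6% and 73.3% against 97.8% and 96.9%) and lie near 50%, the dashed line, between the insertions.

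The point right of RTS1 where the share first passed below 50% moved to the left. With the barrier off it lay 22.5 kb (rnh201-RED) and 16.9 kb (rnh201-d) right of the construct, beyond the array in both. With the barrier on it lay 0.682 and 4.34 kb right of the construct, in spo9 and in cog2. The shift was 21.8 and 12.6 kb, a mean of 17.2 ± 6.51 kb (SD, n = 2). The search began 600 bp right of the construct, and the barrier-on rnh201-RED point lay at the first bin searched. With 11 bins the points lay at 22.4 (rnh201-RED) and 17.6 kb (rnh201-d) with the barrier off. With it on they lay at 5.59 and 6.8 kb, so the shift was smaller in each allele. The barrier-on crossing is a first touch of 50%. In the parts that follow the part it lies in, the share was 65.1% in the second part of rnh201-RED and 54.8% in the fourth of rnh201-d. Its mean of 2.51 kb moved with the setting, to 0.952 kb with 3 bins, 0.544 kb without the bins far from the library median and 6.20 kb with 11 bins.

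The strand asymmetry left with the barrier on can be set beside the level of the other strand with the barrier off. Crick over Watson was 14.6 and 8.47 between the insertions with the barrier off and 1.08 and 1.16 with it on. The remaining Crick level of the barrier-on libraries was 3.44 and 1.66 times the Watson level of the barrier-off libraries, or 11.2 and 5.99 CPM per kb above it. The Crick strand was thus low but above the Watson strand of the barrier-off state.

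Pol δ and Pol ε libraries of the same locus, 4 of each from strains labelled without a pku70 deletion, show where the Pol α profile stands apart. Between the insertions the Pol δ Crick level changed by -0.21 (rnh201-RED) and -1.0 (rnh201-d) on the log2 scale, less than Pol α in either allele, and the Pol δ Watson level by 3.47 and 3.79, more than Pol α. Pol ε, the leading-strand polymerase, changed by -1.77 and -2.08 on Watson. For its Crick strand the alleles went opposite ways, with -0.59 and 1.11. These comparisons share no libraries with those of Pol α.

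The differences were tested in 1 fit of all 12 libraries. For Pol α minus Pol ε, edgeR's quasi-likelihood test called 8 Crick windows, all lower (0.0955% of 8381), and 12 Watson windows, all higher (0.143% of 8380), and all lay at the locus. The Watson windows ran from 853501 to 880500 and the Crick windows from 862501 to 877500, with gaps. The lowest adjusted p, 0.00134 by edgeR, was that of the Watson window at 861001 to 862500, over sap61, where Pol α changed by 1.61 and Pol ε by -2.16 on the log2 scale (difference 3.76, SE 0.28). Without the barrier-off rnh201-d Pol α library the counts were 7 and 15 at the locus. The barrier-off rnh201-d Pol δ library, labelled rtf1-deleted, had counts over rtf1 at 0.223 of the flanking level, and without it 2 and 2 windows were called.

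For Pol α minus Pol δ no window was called by edgeR's quasi-likelihood test on the Crick strand (0.0%) or the Watson strand (0.0%), with or without that Pol δ library, and the lowest adjusted p were 0.281 and 0.121. At an unadjusted p under 0.05 there were 14 Crick and 13 Watson windows at the locus, of 68 tested there on each strand. Across the genome there were 167 of 8381 Crick and 170 of 8380 Watson windows. On the Crick strand the fitted difference was -2.87 (SE 0.46) at 853501 to 855000, where Pol α changed by -2.70 and Pol δ by 0.17, -1.28 (SE 0.36) at 862501 to 864000, and -0.19 (SE 0.31) at 871501 to 873000, where they changed by -1.54 and -1.35. On the Watson strand it was -3.19 (SE 0.38) at 855001 to 856500, over spo9, where Pol δ changed by 3.95 and Pol α by 0.76, still -2.91 (SE 0.42) at 862501 to 864000 before the array, and -0.29 (SE 0.33) at 873001 to 874500.

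**Figure D5:**
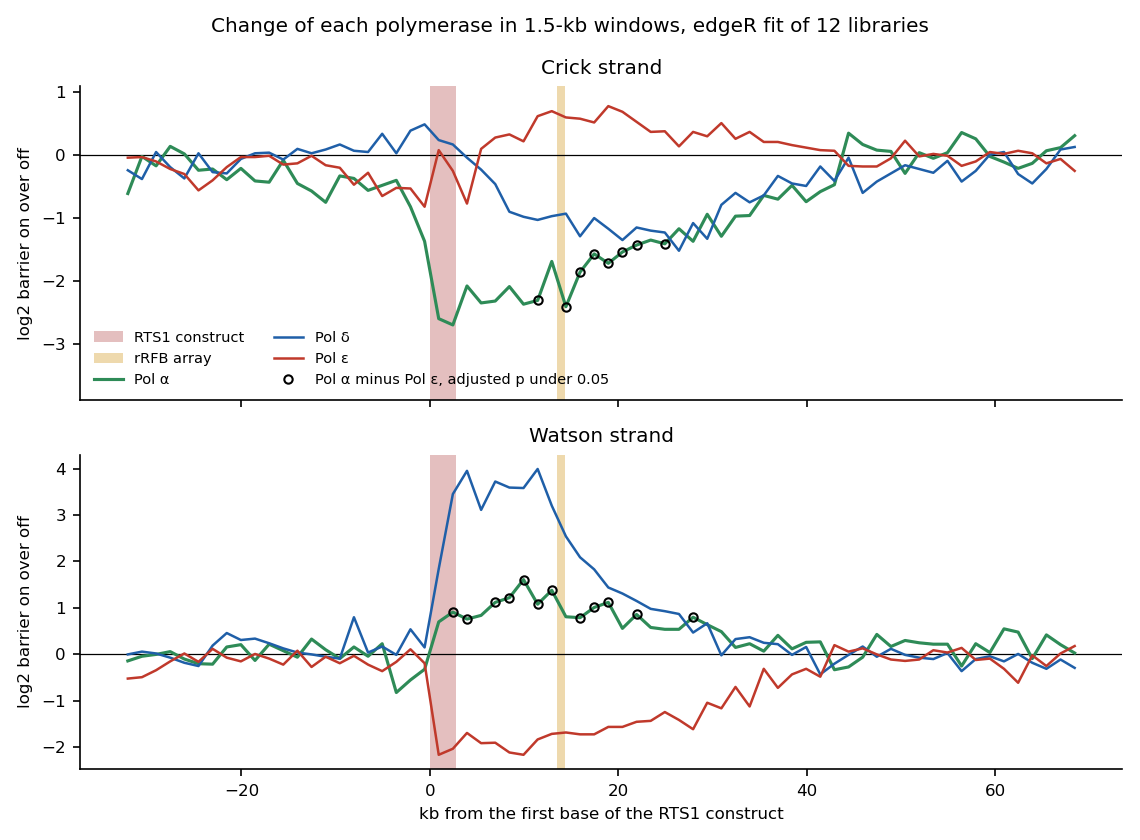
Fitted log2 of barrier on over barrier off (y axis) in 1.5-kb windows against distance from the first base of the RTS1 construct (x axis, kb), from an edgeR fit of 12 libraries, 4 per polymerase. Green is Pol α, blue Pol δ and red Pol ε, and open circles mark the 8 Crick and 12 Watson windows in which Pol α differed from Pol ε at an adjusted p under 0.05. Right of RTS1 the green Crick line lies below the blue one and joins it past the array. The green Watson line lies between the other two from 852001 to 879000, and further right it lies above both in some windows.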

How the data were processed

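The authors cut genomic DNA with alkali, aligned reads with Bowtie2 (version not given in the sources used here) to a genome with the construct, and deposited raw counts per 300-bp bin of each strand, without normalization. Forward tables were taken as Watson. Samples follow the labels, with 1 library per strain, so p-values measure only the spread between these libraries. Libraries of other constructs were not used here, and no sample was left out of the values reported. Sites came from matching the construct's primer arms to ASM294v3.

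Counts were divided by library totals and summed over stretches, 1.5-kb steps or moving sums of 5 bins (0.5 added in the moving ratio). Intervals are exact binomial at 95%. The methods state no test. edgeR 4.0.16 (R 4.3.3; TMM, at least 10 counts per library, Benjamini-Hochberg at 0.05) was used on 1500-bp windows, with DESeq2 1.42.0 as an alternative, and was checked on simulated counts. Windows named were, at the locus, the called window with the lowest adjusted p and the ends of each run, and outside it at most the 5 with the lowest adjusted p. The Watson window over sap61 and the unadjusted windows were named after their values were seen, as were the windows of the Pol δ comparison. Genes named flank, hold or lie between the insertions or edges. The libraries, stretches and lists were chosen with earlier results of these data known. Alternatives changed scaling, bins, thresholds, smoothing, windows, tool and libraries. Scripts ran in Python 3.11.15, with scipy 1.17.1 for intervals and pandas 2.3.3 for tables.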

Additional observations from a re-analysis of the deposited data

Results flagged for a closer look

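The stretches below are those where the alleles moved opposite ways with the barrier on and the counting interval of each allele left out 0. None of these differences between alleles was tested, since each rests on 1 library per allele and barrier state. The Pol α Watson strand left of RTS1 changed by -1.67 in rnh201-d and 0.47 in rnh201-RED on the log2 scale. Further left, back to 820 kb, it changed by 0.19 in rnh201-d and -0.13 in rnh201-RED. Right of the stretch past the array, up to 920 kb, Pol α on both strands together changed by -0.06 in rnh201-d and 0.09 in rnh201-RED. The Pol ε Crick strand between the insertions changed by 1.11 in rnh201-d and -0.59 in rnh201-RED, where the barrier-off levels were 4.39 and 15.4 CPM per kb. The Pol δ Crick strand back to 820 kb, left of the stretch beside RTS1, changed by -0.07 in rnh201-d and 0.09 in rnh201-RED.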

How the results depend on the processing

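Of 147 recomputed values of the 23 main results, 108 counted as the same. Numbers of windows or kb called were the same within 1.5-fold. Positions and lengths were the same within 1 SD of the 2 alleles, whatever their sign, and log2 changes within 1 SD with the sign kept. Each allele alone meets that SD rule by construction. The Watson run had an SD of 10.1 kb (start) and 24.9 kb (end), so the 108 is not a measure of stability. The Crick fall began 3.19 kb left of the construct at a log2 threshold of 0.5. It ended 21.9 kb past the array at a threshold of 0.5, 2.72 kb at 1.5, 6.77 kb at 0.5 of the change between the insertions, 2.93, 5.66 and 18.3 kb with moving sums of 1, 3 and 11 bins, and 16.8 kb with each library scaled to its median bin. Its length under the same alternatives was 39.5, 17.6, 22.3, 18.0, 21.3, 34.1 and 32.9 kb. The mean start of the longest Watson run was -8.36 kb from the right end of the construct and 2.27 kb with 11 bins, 1.09 kb at a threshold of 0.5 and 1.04 kb at 0.5 of the change, since the longest rnh201-d run then lay between the insertions. The barrier-on point of equal shares lay at 0.952, 6.20 and 0.544 kb with 3 bins, 11 bins and without far-out bins. Set against the same strand left of RTS1, which was itself lower on the Crick strand, the mean log2 changes were -1.43 (Crick) and -0.66 (both strands) between the insertions and -0.75 (Crick), 1.3 (Watson) and 0.59 (both, reversed) past the array.

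The Crick windows called covered 14.4 kb with 300-bp windows, 18.0 kb with 900-bp windows and 16.5 kb without the allele term, and 0.0 to 25.5 kb with 1 library left out, where the allele term was dropped too. With 300-bp windows 0.3 kb of Watson sequence was called. Outside the locus 3 windows were called without TMM, 2 without the count filter, 0 with 900-bp windows and 0 to 61 with 1 library and the allele term left out, the 61 without the barrier-off rnh201-d library. Pol α minus Pol δ gave 1 lower Watson window without TMM, and Pol α minus Pol ε gave 2 Crick and 2 Watson windows without the barrier-off rnh201-d Pol δ library, and 7 and 15 without the barrier-off rnh201-d Pol α library. Both removals were chosen after seeing the data. The cause of these changes was not tested beyond the alternative's own construction.

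Of 159 recomputed values of 27 smaller results, 8 reversed, namely the Watson strand left of RTS1 (0.47, rnh201-RED alone), the Crick strand (0.45) and both strands (0.61) far left and the Crick strand far right (0.52), all 3 relative to the strand left of RTS1, the Watson strand far left (-0.03 with the median bin, -0.13 in rnh201-RED alone), and both strands far right (-0.05 with the median bin, -0.06 in rnh201-d alone). The rnh201-RED libraries alone could not be fitted for the 3 polymerases, since no residual degrees of freedom remain. The labels give no replicate numbers to pair by, and barrier on and off were matched by rnh201 allele through the allele term. Depth limits the Watson strand left of RTS1 and in the construct, at 49 to 252 counts per library.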
